A study of Mus musculus with 2 samples.

Results

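Glycolysis turns glucose into pyruvate and lactate, and the genes described here encode 10 of its enzymes, from hexokinase to lactate dehydrogenase: Hk2, Gpi1, Pfkl, Aldoa, Tpi1, Gapdh, Pgk1, Eno1, Pkm and Ldha. They were taken as every non-control array probe whose RefSeq accession belongs to 1 of these genes. That gave 14 probes on 32 spots, out of 41163 gene probes and 17302 genes with a matched probe. The genes were chosen by their differences in processed signal between these arrays, so their values are a description and support nothing by themselves.

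The cells were hybridoma cells of the line labelled 1H5F9. A hybridoma is a fusion of a B cell with a myeloma cell that grows without limit and secretes antibody. The groups were cells given 5 µg/ml of the bursal peptide BSP-II for 4 h and cells given 0 µg/ml for the same time, both in serum-supplemented medium. RNA of each group was labelled with Cy3 and hybridised to 1 Agilent array, both on the same slide. The series' text speaks of 2 independent experiments, but both arrays analysed here carry replicate number 1. There is thus 1 array per group and 1 line: no difference below has a replicate check, and none was tested. Of the gene probes, 27283 passed Agilent's well-above-background call with BSP-II and 24681 without.

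In the first steps of the pathway hexokinase and phosphofructokinase spend ATP to make a sugar bisphosphate, with glucose phosphate isomerase acting between them. Aldolase splits the bisphosphate, and triose phosphate isomerase interconverts the products. The later enzymes, from glyceraldehyde phosphate dehydrogenase to pyruvate kinase, return ATP and NADH, and lactate dehydrogenase regenerates NAD+. Proliferating lymphoid cells are known for rapid glycolysis even where oxygen is present. HIF-1 and Myc are transcription factors known to bind near many of these genes.

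All 10 genes were slightly higher on the BSP-II array than on the untreated one, each by less than 1.2-fold, and lay above the median gene. Signals are given as multiples of the array's own 75th percentile, which was 356 on the BSP-II array and 309 on the untreated array, and differences as log2 of BSP-II over untreated on that scale. The median difference of the 10 genes was 0.13, with a range of 0.01 (Ldha) to 0.26 (Pfkl). Over the 12855 genes well above background on both arrays the median was −0.03, with quartiles of −0.18 and 0.11. All 10 lay above that median, where 50% of all genes lie by definition. None reached 1.2-fold in either direction, against 8.66% of all genes that were at least 1.2-fold higher and 18.1% that were at least 1.2-fold lower. At least 1.1-fold higher were 5 of the 10 (Hk2, Gpi1, Pfkl, Tpi1 and Pkm), against 20.4% of all genes, and none was at least 1.5-fold higher, against 1.21%. In bulk RNA a change in how many cells express a gene and a change in RNA per cell cannot be told apart.

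**Figure D1:**
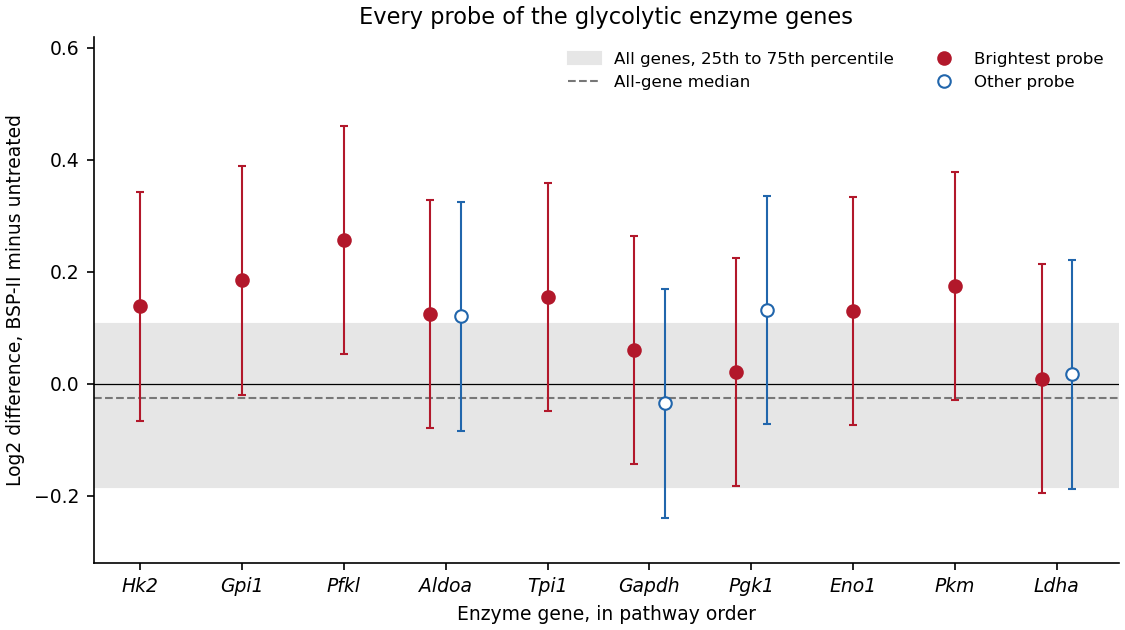
Log2 difference (BSP-II minus untreated) of each of the 14 probes, with the enzymes in pathway order. Filled points are the brightest probe of a gene, open points its other probe, bars are 1 Agilent error of a spot carried to the difference (0.20), the grey band spans the quartiles of all genes and the dashed line is their median of −0.03. All points but the second Gapdh probe lie above that line.

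Hexokinase 2, the inducible enzyme that phosphorylates glucose, had a scaled signal of 14.8 on the BSP-II array and 13.5 on the untreated array, a log2 difference of 0.14. Pfkl, the liver-type subunit of phosphofructokinase, which catalyses the committing step, stood at 12.5 with BSP-II and 10.4 without. Its log2 difference of 0.26 (1.19-fold) was the largest of the 10 and exceeded that of 91.0% of all genes. Pfkl was also the dimmest of the 10, and other processing moved its difference between 0.20 and 0.38.

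Gpi1, which turns glucose 6-phosphate into fructose 6-phosphate, was printed as 10 spots of 1 probe, 8 of which were free of outlier flags. Its scaled signal averaged 185 on the BSP-II array, with spots from 177 to 191. On the untreated array it averaged 163, with spots from 157 to 172. The spots of the arrays did not overlap and all 8 were higher with BSP-II, by log2 differences of 0.15 to 0.24 (mean 0.18, SD 0.03 over 8 spots). The 2 spots left out gave 0.15 and 0.20.

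Pgk1, phosphoglycerate kinase, the first enzyme of the pathway to return ATP, was also printed as 10 spots of 1 probe. Its scaled signal averaged 140.0 on the BSP-II array, with spots from 129 to 150, and 138 on the untreated array, with spots from 131 to 144. Here the spots overlapped, with 7 higher and 3 lower on the BSP-II array, and the log2 difference was 0.02 (SD 0.04 over 10 spots). A second Pgk1 probe, on 1 spot, stood at 97.3 with BSP-II and 88.9 without, a log2 difference of 0.13, so the Pgk1 probes differed from each other by more than the SD of the repeat spots. Repeat spots share 1 RNA sample and 1 hybridisation per array, so their spread covers printing and reading only. Among the 135 gene probes with at least 8 usable spots, whose median log2 difference was −0.05, 10 lay above Gpi1 and 42 above Pgk1.

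**Figure D2:**
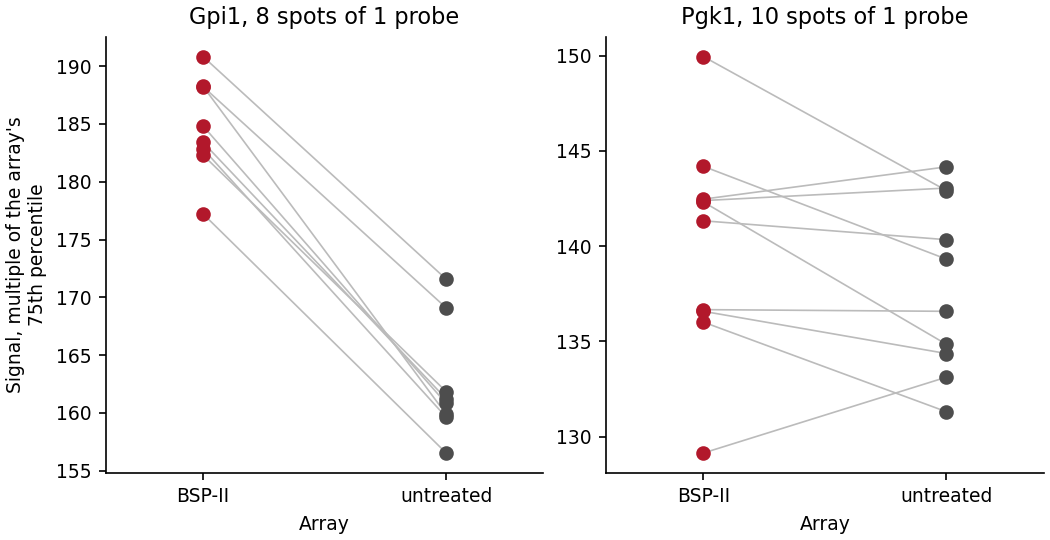
Scaled signal (multiple of the array's 75th percentile; the axes do not start at 0) of the repeat spots of the Gpi1 probe (8 spots) and the Pgk1 probe (10 spots), BSP-II array left and untreated array right. Lines join the spot at the same array position: all 8 Gpi1 spots are higher with BSP-II, while the Pgk1 spots overlap.

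Aldolase A, which splits fructose bisphosphate, was measured by 2 probes that gave nearly the same difference. The brighter stood at 364 on the BSP-II array and 334 on the untreated array, and the other at 345 with BSP-II and 317 without, each a log2 difference of 0.12. The spot of the second Aldoa probe had several neighbours with large differences in one direction (a clustered spot), the only one of the 30 usable spots to do so. Triose phosphate isomerase (Tpi1) stood at 173 with BSP-II and 155 without, a log2 difference of 0.15. These enzymes close the first part of the pathway, and the 5 genes from Hk2 to Tpi1 had a median log2 difference of 0.15 and a range of 0.12 to 0.26.

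The 5 genes from Gapdh to Ldha had a median log2 difference of 0.06 and a wider range, 0.01 to 0.17. Gapdh, the oxidising enzyme of the pathway and a common control gene, stood at 316 on the BSP-II array and 303 on the untreated array by its brighter probe, a log2 difference of 0.06. Its other probe stood at 147 with BSP-II and 151 without, a log2 difference of −0.04, the only negative value among the 14 probes and close to the all-gene median. Eno1, the widely expressed enolase, stood at 25.9 with BSP-II and 23.7 without (0.13), and Pkm, pyruvate kinase of muscle and proliferating cells, at 89.1 with BSP-II and 78.9 without (0.17). Which Pkm isoforms its single probe binds was not determined.

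Ldha, which makes lactate, was the least different. Its brighter probe stood at 198 on the BSP-II array and 197 on the untreated array (log2 difference 0.01), and its other probe at 111 with BSP-II and 109.9 without (0.02). Pgam1, the phosphoglycerate mutase of most cells and the step between Pgk1 and Eno1, is not among the 10, and its scaled signal was 237 with BSP-II and 239 without (−0.02). Probes for abundant enzymes with many processed pseudogene copies, such as Gapdh, Aldoa and Ldha, may also bind RNA of those copies, which was not tested.

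No single difference was large beside Agilent's error of a spot. Carried to a log2 difference, that error was 0.20 for each of the 14 probes. The highest ratio of a difference to that error was 1.26 (Pfkl). The error hardly varied between these probes (0.204028 to 0.204032) and was larger than the scatter of repeat spots. The SD of repeat spots was 0.03 for Gpi1 and 0.04 for Pgk1. Its median was 0.07 over the 157 detected probes with repeat spots. The median log2 difference of the spots around each spot of the 10 genes lay between −0.15 and 0.05. The brightness of the 10 genes bears on the comparison, because dim probes scatter more. Their processed signals lay between 3229 and 129685, where no non-control spot was saturated. At least as bright as the dimmest of the 10 were 1990 genes, whose log2 differences had a median of −0.03 and quartiles of −0.11 and 0.04. In that set 9.1% of genes were at least 1.1-fold higher, against 5 of the 10, 2.06% at least 1.2-fold higher and 5.33% at least 1.2-fold lower, against none in either direction, and 46.6% lay above the all-gene median, against all 10. At least 1.5-fold higher were 0.101%. Within it the percentile of the 10 genes ran from 64.9 for Ldha and 68.6 for Pgk1 to 94.8 for Gpi1 and 97.7 for Pfkl. The 10 genes are themselves among the 1990.

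**Figure D3:**
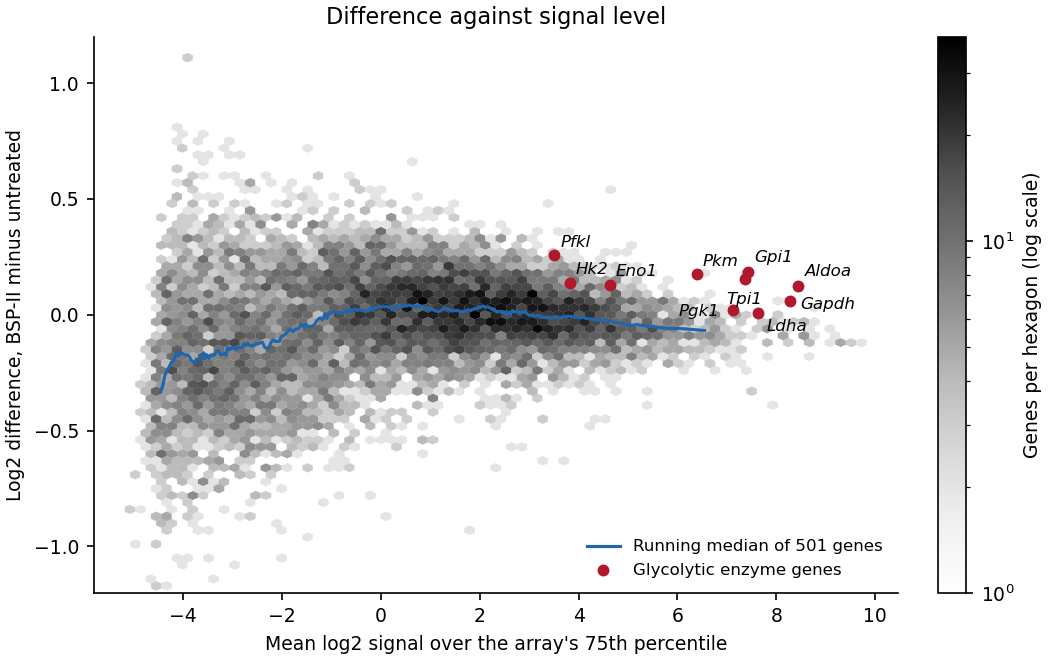
Log2 difference (BSP-II minus untreated) of all genes well above background on both arrays, as hexagons shaded by number, against mean log2 signal over the array's 75th percentile, cropped at differences of 1.2 either way. Red points are the 10 enzyme genes and the blue line is a running median, which lies slightly below 0 among bright genes; the 10 genes lie above it.

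Promoter sequence is shown for the genes with the largest differences (Pfkl and Gpi1) and for those with the most copies of ACGTG, the core of the site that HIF-1 binds (Ldha, Pgk1 and Hk2). The 250 bases before each annotated start were read from RefSeq (build GRCm38.p6), 5′ to 3′ on the gene's strand, and all 10 genes matched, with 16 starts in all. Capitals mark ACGTG on either strand (CACGT when read on the gene's strand), with overlapping copies counted once. The windows are Pfkl at chr10:78009808-78010057, minus strand, Gpi1 at chr7:34230337-34230586, minus strand, Hk2 at chr6:82774455-82774704, minus strand, Pgk1 at chrX:106186850-106187099, plus strand, and Ldha at chr7:46845554-46845803, plus strand.
Pfkl: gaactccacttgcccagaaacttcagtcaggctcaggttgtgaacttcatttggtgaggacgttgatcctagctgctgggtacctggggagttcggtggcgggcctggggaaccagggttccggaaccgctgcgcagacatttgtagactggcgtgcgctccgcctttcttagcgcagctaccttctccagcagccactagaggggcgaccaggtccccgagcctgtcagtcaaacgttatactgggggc
Gpi1: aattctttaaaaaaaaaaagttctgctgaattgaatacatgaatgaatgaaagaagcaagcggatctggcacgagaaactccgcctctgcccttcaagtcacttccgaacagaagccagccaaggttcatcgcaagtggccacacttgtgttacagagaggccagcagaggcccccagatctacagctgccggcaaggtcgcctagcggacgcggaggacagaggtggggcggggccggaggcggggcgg
Hk2: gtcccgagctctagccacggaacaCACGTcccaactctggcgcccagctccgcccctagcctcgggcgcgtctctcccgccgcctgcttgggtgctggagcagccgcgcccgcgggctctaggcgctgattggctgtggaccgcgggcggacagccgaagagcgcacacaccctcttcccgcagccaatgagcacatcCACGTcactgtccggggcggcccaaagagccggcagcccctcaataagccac
Pgk1: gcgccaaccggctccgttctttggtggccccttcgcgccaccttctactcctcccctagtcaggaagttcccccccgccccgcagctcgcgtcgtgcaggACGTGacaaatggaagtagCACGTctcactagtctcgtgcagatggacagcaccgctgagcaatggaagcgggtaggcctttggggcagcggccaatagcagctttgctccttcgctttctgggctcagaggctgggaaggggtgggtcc
Ldha: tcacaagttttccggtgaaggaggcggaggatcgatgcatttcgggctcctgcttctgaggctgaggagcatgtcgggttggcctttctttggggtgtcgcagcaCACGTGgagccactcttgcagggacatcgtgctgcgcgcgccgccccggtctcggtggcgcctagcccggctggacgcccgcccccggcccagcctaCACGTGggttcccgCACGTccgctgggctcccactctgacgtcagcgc

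At least 1 copy of ACGTG lay before a start of 5 of the 10 genes (Hk2, Aldoa, Pgk1, Pkm and Ldha), against 18.5% of the 27025 genes with a window in the table and 28.9% of the 1662 such genes at least as bright as the dimmest of the 10. Counted by window, 6 of the 16 windows of the 10 genes (37.5%) held one, against 16.6% of all 32851 windows. The Aldoa windows with a copy overlap and share the same copy, so it was counted more than once. Ldha, Pkm and Aldoa each also had a window without a copy. The Ldha window shown held 3, starting 145, 48 and 34 bases before the start. The first and second were the palindrome CACGTG, the E-box that Myc and its partners bind and which 6.02% of all windows held. Hk2 held 2 copies, 226 and 52 bases before its start, and Pgk1 held 2, at 150 and 131 bases. The log2 differences of the 5 genes with a copy ran from 0.01 (Ldha) and 0.02 (Pgk1) through 0.12 (Aldoa) and 0.14 (Hk2) to 0.17 (Pkm). Those of the genes without a copy of ACGTG ran from 0.06 (Gapdh) through 0.13 (Eno1), 0.15 (Tpi1) and 0.18 (Gpi1) to 0.26 (Pfkl). The ranges overlapped, and a link between copies and differences was not tested. Other forms of the HIF-1 core, such as GCGTG, were not counted. The Pfkl window shown holds GCGTG, so a gene without ACGTG may still hold another form. A match is a stretch of letters and not a bound site, and no binding was measured.

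Other isozymes and steps of glycolysis went both ways. Of 22 such genes 21 had a probe and 15 were well above background on both arrays, with a median log2 difference of 0.04. Of the 15, 11 lay above the all-gene median (11 or 12 under the scalings tried). At least 1.2-fold higher were 3, against 8.66% of all genes, and at least 1.2-fold lower were 2, against 18.1%. The highest was Eno2, the neuronal enolase, at scaled signals of 0.247 with BSP-II and 0.120 without (log2 difference 1.04), and its other probe gave 1.30. These Eno2 signals are low, 37.1 units on the untreated array by the brighter probe. The other phosphofructokinase subunits were higher too: Pfkp, the platelet type, stood at 4.08 with BSP-II and 3.20 without (0.35; a dim second probe gave −0.13), and Pfkm, the muscle type, at 8.55 with BSP-II and 7.59 without (0.17). All 3 phosphofructokinase genes therefore lay above the all-gene median by their brightest probes.

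Hexokinase 1 was at 0.26 by its brightest probe, with detected others at 0.35, 0.23 and −0.54, the last on a clustered spot. Hk3, another hexokinase, was at −0.0035. Aldoc, the brain-type aldolase, was at 0.17, Adpgk, which uses ADP to phosphorylate glucose, at 0.12, Ldhb, the heart-type lactate dehydrogenase subunit, at 0.05, Pklr, the liver and red cell pyruvate kinase, at 0.04 and Bpgm, which makes bisphosphoglycerate, at 0.02 (other probe 0.19). On the lower side were the testis enzyme gene Ldhal6b (−0.38), the muscle mutase Pgam2 (−0.28), the muscle enolase Eno3 (−0.13) and the sperm enzyme Gapdhs (−0.04). Hkdc1 and Eno4 were well above background on the BSP-II array alone, at signals of 12.1 and 13.8, near the lowest detected signal of the untreated array (11.8), so no fold is given.

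Of the genes of fuel supply and control, 2 glucose transporters showed larger log2 differences than any of the 10 enzymes. Slc2a1, the GLUT1 glucose transporter, had a scaled signal of 27.7 on the BSP-II array and 19.9 on the untreated array (log2 difference 0.47, 1.39-fold). Slc2a3, the GLUT3 transporter, stood at 2.55 with BSP-II and 1.87 without (0.45). Slc16a3, which exports lactate, was at 0.24. The pyruvate dehydrogenase kinases Pdk1 and Pdk3, which restrain pyruvate dehydrogenase in the mitochondrion, were at 0.24 and 0.23 (other Pdk3 probe 0.07). In all, 16 of 18 genes of supply and control were measured, with a median log2 difference of 0.05. Of these, 10 lay above the all-gene median. At 1.2-fold 2 were higher, against 8.66% of all genes, and none was lower, against 18.1%.

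The pentose phosphate pathway, which branches off after hexokinase and makes NADPH, showed small differences of one direction. All 7 of its measured genes (of 11 listed) lay above the all-gene median, with a median log2 difference of 0.10. None reached 1.2-fold, against 8.66% of all genes higher and 18.1% lower. Pgd, the second NADPH-making enzyme, was at 0.16 (other probe 0.06) and G6pdx, the first enzyme, at 0.07. H6pd, the counterpart of G6pdx in the endoplasmic reticulum, was at 0.12 (other probe −0.01). Rpe, an epimerase, was at 0.10 (other probe −0.25, on a clustered spot) and Pgls, the lactonase, at 0.10.

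Genes of gluconeogenesis and glycogen went both ways, with a median log2 difference of 0.03 over 15 measured of 18, of which 10 lay above the all-gene median (8 to 10 under the scalings tried). At least 1.2-fold higher were 3, against 8.66% of all genes, and at least 1.2-fold lower were 2, against 18.1%. The mitochondrial phosphoenolpyruvate carboxykinase Pck2 stood at 30.3 with BSP-II and 23.0 without (0.39), and pyruvate carboxylase Pcx at 3.25 with BSP-II and 4.07 without (−0.33). The dim genes Pgm2, on a clustered spot, Gys1, muscle glycogen synthase, and Fbp1, fructose bisphosphatase, were at 0.78, 0.30 and −0.30.

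Genes that draw on glycolytic intermediates had a median log2 difference of −0.05 over all 17, with 8 above the all-gene median (8 or 9 under the scalings tried). Gfpt2, which opens hexosamine synthesis, was at −0.55, aldose reductase Akr1b3 at −0.25 (other probe −0.17) and the mitochondrial glycerol phosphate dehydrogenase Gpd2 at −0.24. The later hexosamine enzymes Pgm3 and Gnpnat1 were at 0.23 (other probe 0.28) and 0.20. Of 7 transcription factors known to act on glycolytic genes, 5 lay above the all-gene median, with a median log2 difference of 0.04. Hif1a was at 0.10, its partner Arnt at 0.09 (other probe 0.17), Epas1 at 0.04 and the nuclear receptor Esrra at 0.24. Mlxipl, a dim glucose-responsive factor on a clustered spot, was at −0.57. All 3 Myc probes lay between −0.04 and −0.03, near the all-gene median.

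**Figure D4:**
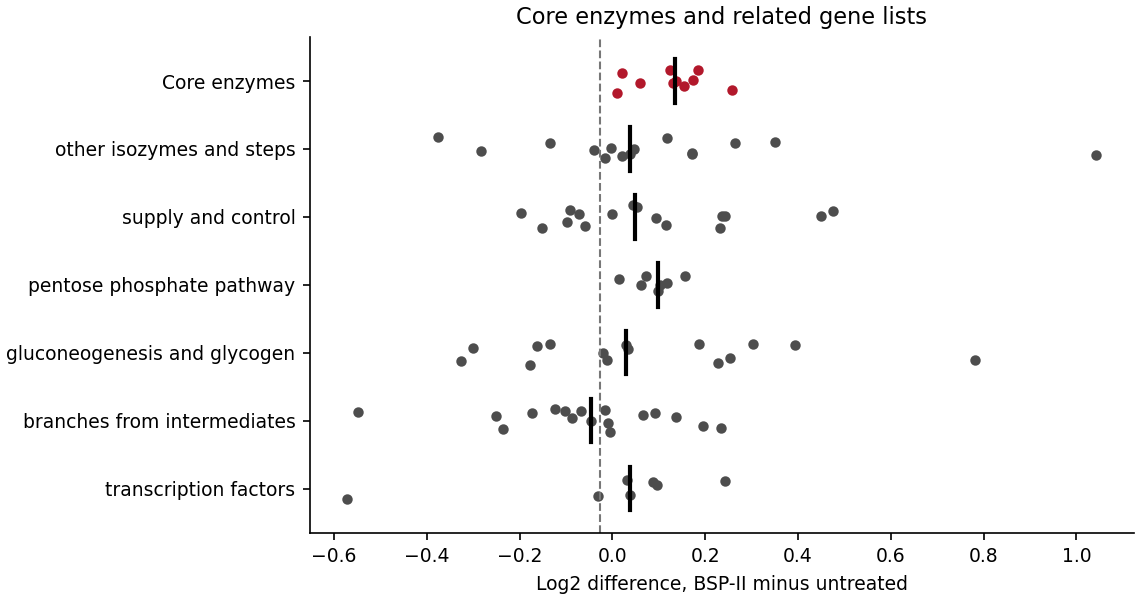
Log2 difference (BSP-II minus untreated) of each measured gene of the 10 core enzymes (red) and of the 6 related lists (grey), by the brightest probe. Black bars are medians and the dashed line is the all-gene median of −0.03. The core enzymes have the highest median, 0.13, and the pentose phosphate genes the next, 0.10. The core enzymes were chosen by this same difference, and each related list holds dimmer genes, so the order of the medians supports nothing by itself.

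The labelled cell type was checked on marker genes. All 9 plasma cell markers were well above background on both arrays, with Jchain the brightest at scaled signals of 435 with BSP-II and 488 without. Their log2 differences ran from −0.36 to 0.09, with 3 of 9 above the all-gene median. Of 5 B cell markers, 4 were detected on both arrays, with log2 differences of −0.41 to −0.10, and Pax5 on neither. The summed scaled signal of the 4 T cell markers detected on both arrays was 0.950 with BSP-II and 1.24 without. For 3 of 5 myeloid markers it was 0.497 with BSP-II and 0.410 without, and for 3 of 4 fibroblast markers 0.295 with BSP-II and 0.284 without; Lyz2 and Dcn were not well above background on either array, and Cd8a and Itgam were so with BSP-II alone. For 2 of 3 erythroid markers the sum was 0.887 with BSP-II and 0.968 without. The part of any other cell type in the enzyme differences was not tested.

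Under other processing the 10 genes kept their side of the all-gene median, with 1 exception. Some settings left the 10 values unchanged or only added a constant to them. Scaling each array to its median moved the median of all genes by 0.12 and every enzyme by the same amount, so positions relative to that median did not move, but 4 of the 10 were then at least 1.2-fold higher, against 19.9% of all genes under that scaling. Loess scaling, which removes the trend with brightness, placed the median of the 10 genes 0.18 above the all-gene median, against 0.16 as reported. The exception was Gapdh, which lay just below the all-gene median when the dimmest detected probe of each gene was used. Pfkl, the highest in the reported processing, lay at 0.20 with normexp background correction and without background subtraction, where Gpi1 was at 0.25 and 0.21, and at 0.27 with quantile and loess scaling.

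**Figure D5:**
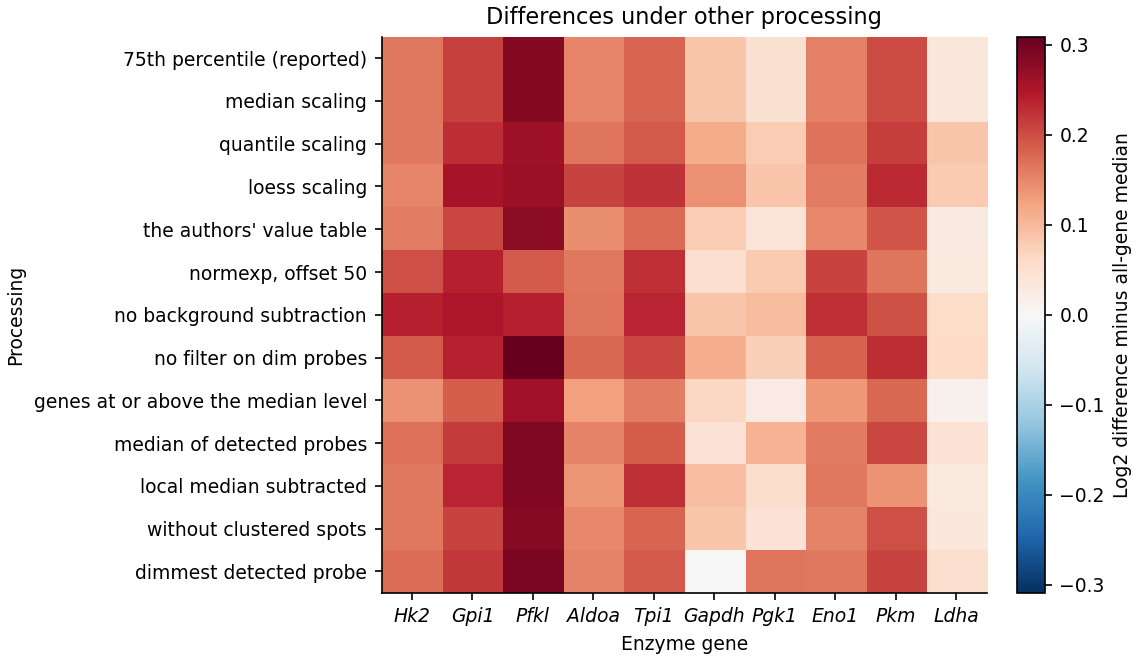
Log2 difference minus the all-gene median for each of the 10 enzymes (columns) under the reported processing and 12 others (lines), on a colour scale centred on 0. Every cell but Gapdh under the dimmest probe is above 0, and Ldha, Pgk1 and Gapdh are the palest in most lines.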

How the data were processed

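RNA of BSP-II-treated and untreated hybridoma cells was hybridised in 1 colour, 1 array per group. Per the submitters' processing notes, Agilent Feature Extraction 10.5.1.1 was used. The deposited intensity values are, per the file headers, a background-subtracted processed signal with its error and the raw median brightness of each spot and its surroundings. The deposited flags (unit "other") mark saturated, outlier and well-above-background spots. The deposited value table is on a log2 scale with a constant added per array, found from the values; column medians are 2.99 (BSP-II) and 2.88 (untreated), its direction was read from the array signals, and its centring is not given in these sources.

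For names alone, probe accessions without their version were looked up in a RefSeq table of GRCm38.p6 (25091 of 41163 probes, 61.0%), because the arrays' grid was built on another assembly. Control spots and 189 outlier spots were left out. The log2 processed signal was reduced by each array's 75th percentile, spots of a probe were averaged, and a gene was given by its brightest probe. A probe counted as well above background when more of its spots were flagged so than not. The number of arrays limits the precision, and no test was possible. Called means past 1.2-fold.

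The 10 genes, the related lists, the marker lists and the split of the pathway were chosen with earlier results of these data known. Named were all 10 genes with every probe, every measured gene of the other isozymes, and up to 5 genes per other list with the largest difference; Myc was named beside them after its values were seen. The steps were tested on simulated data. Alternatives were scaling by the median, by quantiles or by loess, the log2 value table of the authors, normexp (offset 50) on the median signal, no background subtraction, all probes or only brighter genes, the median over a gene's probes, subtraction of the median within 10 rows and columns, leaving out clustered spots, and other folds. Spots counted as clustered when at least 2 neighbours no more than 3 rows and columns away differed 2-fold or more, all one way. The dimmest probe and the median of equally bright genes were added after seeing the data. Work used Python 3.11.15, numpy 2.4.6, pandas 2.3.3, statsmodels 0.14.6, matplotlib 3.10.9 and limma 3.58.1.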

Additional observations from a re-analysis of the deposited data

How the results depend on the processing

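All 10 genes lay above the all-gene median under the 11 other settings that give this count and above the median of equally bright genes. Gapdh alone lay below it with the dimmest detected probe. Several of these settings could hardly move the 10 genes. Median scaling and the authors' value table add a constant per array. Without the filter on dim probes, among brighter genes and without clustered spots the 10 values were unchanged. The 10 genes were also chosen by this same difference. Their median log2 difference, 0.13 as reported, was 0.26 with median scaling and 0.26 in the authors' value table. Between 0.13 and 0.19 were the others, the dimmest detected probe included. The number at least 1.2-fold higher, 0 as reported, was 4 with median scaling (19.9% of all genes), 4 in the authors' value table (20.6%), 2 with loess scaling (11.8%), 1 with quantile scaling (11.5%) and 1 after local medians were subtracted (11.0%), against 8.66% of all genes as reported. It was 0 with normexp (5.20% of all genes), without background subtraction (4.49%) and without the filter on dim probes (12.1%). Among genes at or above the median level (4.76%), with the median of detected probes (8.26%) and without clustered spots (8.73%) it was also 0. With shares this low, 0 of 10 genes sets the enzymes apart from other genes in none of these settings. At 1.1-fold the number was 5 (20.4% of all genes) and at 1.5-fold 0 (1.21%). The cause of these moves was not tested beyond median scaling, which adds one constant to every gene. In the 80 repeats for single genes, each difference moved by less than Agilent's error of a spot (0.20) and stayed above 0. That limit is larger than the reported difference of every gene but Pfkl, so keeping within it says little about stability. Leaving out clustered spots changed none of the 10 values. Settings that changed the probe used for a gene were not among these repeats. With the dimmest detected probe Gapdh was at −0.04. No paired analysis was possible because each group holds 1 array, and for the same reason no replicate could be left out. With 1 array per group, no difference can be told from variation between cultures, RNA samples or hybridisations.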
